A study of Homo sapiens with 6 samples.

Results

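AHSG, FETUB, HRG and KNG1 are neighbouring genes on the long arm of chromosome 3 that encode plasma proteins built around cystatin-like domains. They were taken by gene symbol from the deposited expression table, and all 4 were present among its 16659 genes. HepaRG is a human liver tumour line, established in culture, that the labels describe as a hepatic stem cell line. RNA from cells that had received no drug was sequenced in 3 libraries of wild-type HepaRG, the control, and in 3 libraries of HepaRG with a functional knockout of the pregnane X receptor (PXR), a drug-sensing nuclear receptor encoded by NR1I2. The labels say neither how the receptor was disabled nor whether the knockout cells descend from 1 clone. In the text, knockout stands for the libraries with that label. All 4 genes were higher in each knockout library than in any wild-type library, from near absence to levels between 1.77 and 192 scaled CPM, the unit explained with the first values. Separation as such was common: the groups did not overlap, in either direction, at 80.8% of the 16219 genes tested.

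Cystatins are inhibitors of cysteine proteases, and these 4 genes belong to a branch in which the fold has been copied within secreted glycoproteins made mainly by hepatocytes. AHSG encodes fetuin-A, which keeps calcium phosphate in solution in blood and binds the insulin receptor. FETUB encodes fetuin-B, an inhibitor of the egg protease ovastacin. HRG encodes histidine-rich glycoprotein, which binds heparin, zinc, plasminogen and fibrinogen. KNG1 encodes the kininogens, from which plasma kallikrein releases the vasodilator bradykinin, and the high molecular weight form is a cofactor of the contact system of coagulation. Gene levels sum the alternative transcripts, so the high and low molecular weight kininogens were not told apart.

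On GRCh38 the cluster runs from AHSG (ENSG00000145192.13, 186612923 to 186621318) through FETUB (ENSG00000090512.11, 186635969 to 186653141) and HRG (ENSG00000113905.4, 186660216 to 186678240) to KNG1 (ENSG00000113889.13, 186717276 to 186744410), all on the plus strand, in 131.5 kb. Gaps of 14.7, 7.1 and 39.0 kb separate them in that order. A single antisense RNA gene, AC068631.1 (186579476 to 186772986, minus strand), spans all 4 in GENCODE 29.

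Because the 4 genes were higher together, the sequences around their start sites are shown, as RefSeq gives them on GRCh38.p14, from 250 bases before the start to 50 after it, 5′ to 3′ on the plus strand. Capitals mark matches, on either strand, to any of these short motifs: the TATA box (TATAAA), the CCAAT box (CCAAT), a FOXA motif (TGTTTAC), an HNF4A motif (CAAAGTCCA), a C/EBP motif (TTGCNNAA), an inverted repeat bound by the bile acid receptor FXR (GTCANTGAC) and a hexamer bound by PXR (AGTTCA). FETUB has a further start in RefSeq that is not printed. The windows lie at chr3:186612810-186613109 (AHSG), chr3:186635719-186636018 (FETUB), chr3:186665764-186666063 (HRG) and chr3:186717109-186717408 (KNG1).
AHSG: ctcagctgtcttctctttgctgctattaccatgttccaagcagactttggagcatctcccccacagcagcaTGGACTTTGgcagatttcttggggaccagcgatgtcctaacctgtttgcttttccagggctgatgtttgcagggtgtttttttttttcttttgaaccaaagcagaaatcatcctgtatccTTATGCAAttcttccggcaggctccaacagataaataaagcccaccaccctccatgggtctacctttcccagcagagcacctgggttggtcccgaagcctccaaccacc
FETUB: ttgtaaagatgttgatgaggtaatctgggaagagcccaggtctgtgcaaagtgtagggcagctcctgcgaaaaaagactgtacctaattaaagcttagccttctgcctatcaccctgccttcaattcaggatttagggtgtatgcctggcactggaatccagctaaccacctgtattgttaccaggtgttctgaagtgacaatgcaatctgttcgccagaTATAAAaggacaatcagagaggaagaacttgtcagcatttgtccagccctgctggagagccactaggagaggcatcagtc
HRG: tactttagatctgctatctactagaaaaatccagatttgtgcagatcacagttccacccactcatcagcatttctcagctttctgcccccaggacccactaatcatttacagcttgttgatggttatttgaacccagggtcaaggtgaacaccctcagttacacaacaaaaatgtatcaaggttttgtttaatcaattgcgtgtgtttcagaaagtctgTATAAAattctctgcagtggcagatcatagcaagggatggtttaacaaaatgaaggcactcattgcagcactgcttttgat
KNG1: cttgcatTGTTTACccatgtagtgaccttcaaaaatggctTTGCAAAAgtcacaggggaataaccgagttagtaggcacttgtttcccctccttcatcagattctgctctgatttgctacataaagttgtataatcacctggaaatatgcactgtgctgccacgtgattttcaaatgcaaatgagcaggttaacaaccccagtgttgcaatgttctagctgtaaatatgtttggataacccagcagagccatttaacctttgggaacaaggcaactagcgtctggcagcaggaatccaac

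The windows shared few of these letters. A TATA box stood 30 bases before the FETUB start and 31 bases before the HRG start, and 11.5% of 35116 human promoter windows of this length hold that motif. A C/EBP motif lay 59 bases before the AHSG start and 210 bases before the KNG1 start, against 10.5% of all windows. The AHSG window held the HNF4A motif on the minus strand, 179 bases before the start, which 0.384% of windows hold, and the KNG1 window held the FOXA motif at 243 bases, against 3.42%. The FXR repeat (0.347% of windows) was found in none of the 5 member windows, and the CCAAT box (34.6%) and the PXR hexamer (10.4%) only in the further FETUB window, which also held a C/EBP motif. The printed windows had a GC content of 49.3% for AHSG, 47.0% for FETUB, 40.3% for HRG and 43.0% for KNG1, while the median of all windows was 58.7%. The HRG start in RefSeq lies 5798 bases inside the GENCODE 29 gene, so start sites depend on the annotation, and RefSeq places HRG-AS1, not analysed here, on the opposite strand of that window.

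Depth, labels and cell identity bear on every value that follows. Levels are given as scaled CPM, linear values relative to library size to which the submitters had applied a factor for each library. Estimated depth was 11359209 to 20945994 reads in wild-type libraries and 28154914 to 33393110 reads in knockout libraries, so every knockout library was deeper. NR1I2 itself was higher in the knockout, with 8.24, 7.04 and 7.60 scaled CPM in the wild-type libraries, listed by replicate number here and throughout, and 13.1, 13.4 and 14.3 in the knockout. A sum over the whole gene does not test whether a working receptor is made. Nothing in the labels says that libraries came from separate cultures, so p-values measure the spread between these libraries, which may be technical. Hepatocyte markers as a set were detected in both groups. The summed level of 31 plasma protein genes was 5790 to 5950 scaled CPM in wild type and 62400 to 63600 in the knockout. Within that sum, ALB, which encodes albumin, alone had a mean of 867.5 scaled CPM in wild type and 32830 in the knockout. Of the 31, 6 were not above 1 scaled CPM in any wild-type library, and 1 of these, ITIH1, had no wild-type read. The 4 cystatin-like genes therefore moved in cells in which other liver products moved as well. Fewer hepatocyte-like cells and less RNA per cell cannot be told apart in bulk RNA.

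KNG1 had the highest level of the 4. Wild-type libraries held 1.33, 1.20 and 1.12 scaled CPM of it, and knockout libraries 190, 192 and 194. The groups lie far apart, and the wild-type values rest on 66 reads in all against 17566 in the knockout. The group means of KNG1 were 1.22 ± 0.105 and 192 ± 2.12 (SD, n = 3 each) and its log2 change was 6.81 ± 0.064 (SE; limma adjusted p = 4.6e-18).

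AHSG, the fetuin-A gene, was next. The wild-type libraries held 0, 0.335 and 0.225 scaled CPM, or 0, 7 and 5 reads, and knockout libraries 24.5, 25.6 and 24.0. It was undetected in the shallowest wild-type library. Its means were 0.187 ± 0.171 and 24.7 ± 0.816 (SD, n = 3 each), with a log2 change of 5.23 ± 0.162 (SE; limma adjusted p = 8.9e-13).

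HRG followed the same pattern at a lower level. Its values were 0, 0.145 and 0.135 scaled CPM in wild type and 14.9, 13.1 and 14.4 in the knockout, with no overlap. Only 6 wild-type reads support the lower group. Its means were 0.0933 ± 0.081 and 14.1 ± 0.925 (SD, n = 3 each), and the log2 change was 4.63 ± 0.137 (SE; limma adjusted p = 5.7e-13).

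FETUB had the lowest level of the 4 in the knockout. In wild type 1 read was found, in library 1 (0.0824 scaled CPM), and libraries 2 and 3 had 0. Knockout libraries held 1.73, 1.85 and 1.74 scaled CPM, from 56, 50 and 56 reads. Its means were 0.0275 ± 0.0476 and 1.77 ± 0.0688 (SD, n = 3 each), and the log2 change was 2.11 ± 0.152 (SE; limma adjusted p = 1.1e-08).

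**Figure D1:**
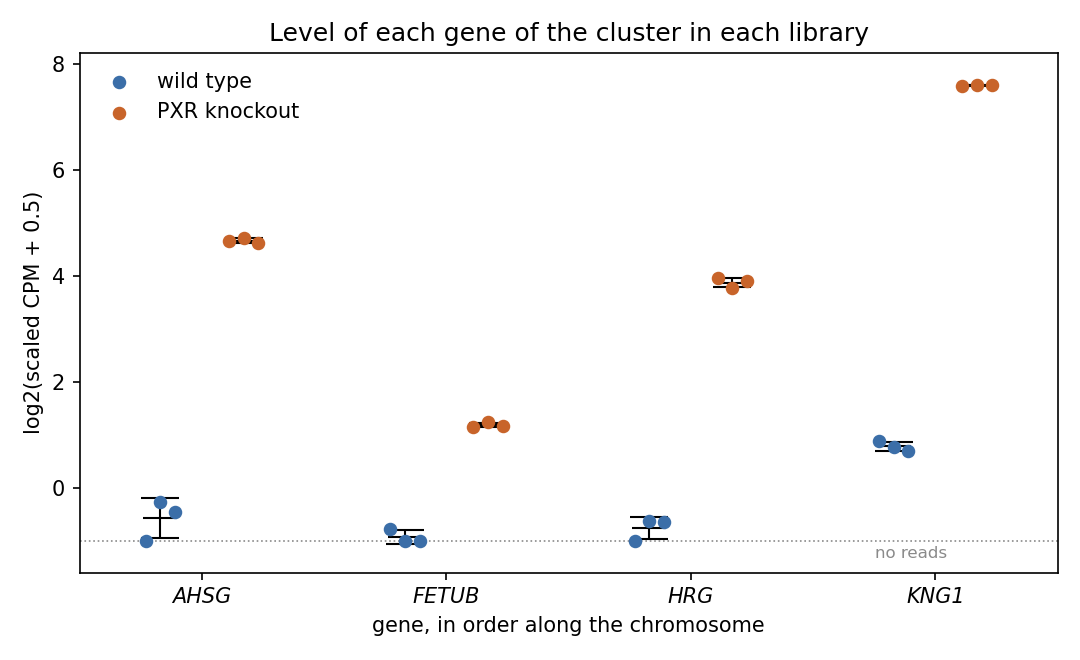
Level of AHSG, FETUB, HRG and KNG1 in each of the 6 libraries, as log2(scaled CPM + 0.5), with 3 dots per group (blue, wild type; orange, knockout) and bars for the mean ± SD. The dotted line marks a library with no reads; every knockout dot lies above every wild-type dot of the same gene, and KNG1 alone has reads in all 3 wild-type libraries.

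All 4 genes rose by the test. Among the 16219 genes tested, 40.3% passed in the same direction, 39.6% passed as lower, and the groups did not overlap at 80.8%, as they did not at these 4. Counts in this comparison are therefore of little weight. For KNG1 the size of the change says more: it ranked 11 among all tested genes by log2 change. AHSG ranked 65, HRG 118 and FETUB 712. The wild-type values of AHSG, HRG and FETUB all lay below the added 0.5. Their ranks therefore mainly follow their knockout levels and that constant. Of the 4, only KNG1 was above the filter of 1 scaled CPM in wild type. AHSG, HRG and FETUB entered the test through their knockout values, so their direction was fixed. Their calls do not add to what the reads show.

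**Figure D2:**
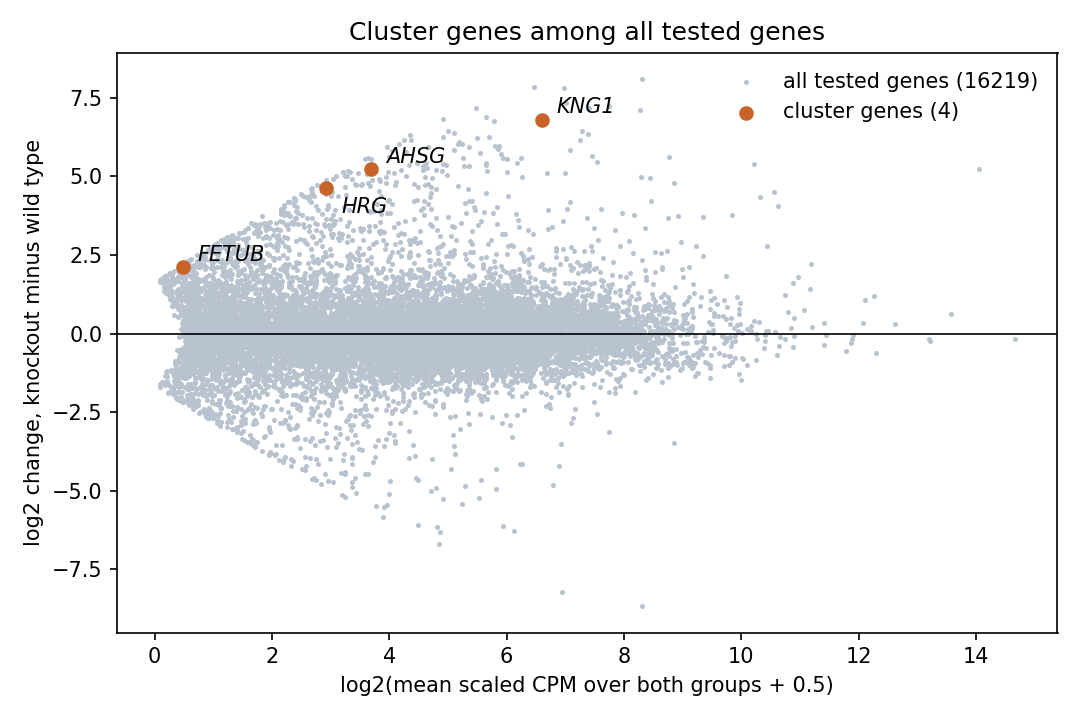
Log2 change (knockout minus wild type, vertical axis) against log2 of the mean scaled CPM plus 0.5 (horizontal axis) for 16219 tested genes in grey, with the 4 cluster genes in orange. AHSG, HRG and FETUB lie on the upper edge of the cloud, where wild-type levels are near 0, so their change of 5.23, 4.63 and 2.11 follows from their knockout level and the added 0.5, and KNG1 lies inside the edge at 6.81.

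The log2 scale with 0.5 added holds back the changes of the lower genes. Ratios of pooled reads on the deposited scale, which includes the submitters' factor for each library, add no such constant and were 161 for KNG1 (95% interval 126 to 208), 131 for HRG (59.9 to 357), 114 for AHSG (64.8 to 220) and 97.7 for FETUB (17.3 to 3880). With libraries scaled to equal sums, without that factor, the ratios were 146, 119, 103 and 88.9 in the same order. The exact intervals cover counting error only. They overlap for every pair of genes, so a difference in fold between the 4 was not detectable at this depth. Where wild-type library 1 was left out, FETUB had no wild-type read, and its knockout level was at least 25.4-fold higher than 3 reads over the other 2 libraries. At the mean knockout level the wild-type libraries would have held 21.5 to 39.4 FETUB reads and 171.5 to 314.4 HRG reads each, against 0 or 1 and 0 to 3.02 found, so both genes would have been detected at wild-type depth.

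The share of each gene in the summed level of the 4 was also set side by side. KNG1 made up 94.2%, 71.4% and 75.7% of that sum in wild type and 82.2%, 82.5% and 82.9% in the knockout. The wild-type shares surround the knockout shares. AHSG took 10.6% ± 0.379, HRG 6.09% ± 0.414 and FETUB 0.763% ± 0.0293 in the knockout (SD, n = 3), against 11.7% ± 10.4, 5.91% ± 5.13 and 1.94% ± 3.37 in wild type. Exact two-sided permutation tests over the 6 libraries gave p = 1.0 for each of the 4 shares (adjusted p is also 1.0), where 3 libraries against 3 can reach 0.1 at best. The sum rose from between 1.41 and 1.68 to between 231 and 234 scaled CPM. The wild-type shares vary too widely to show whether the makeup differed.

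Levels of different genes can be ordered only per length. Per kilobase of exon (union of GENCODE 29 exons), knockout levels were 41.0 ± 0.454 scaled CPM per kb for KNG1, 10.5 ± 0.347 for AHSG, 2.79 ± 0.183 for HRG and 0.876 ± 0.034 for FETUB (SD, n = 3). No neighbours in that order overlapped, and the order was the same with the longest or with the shortest coding transcript of each gene. With the longest transcripts the levels were 45.7, 14.4, 7.02 and 1.09. Among 13719 protein-coding genes ranked per kb in the knockout, KNG1 stood at 881, AHSG at 4027, HRG at 9285 and FETUB at 11696. In wild type KNG1 was highest, at 0.26 ± 0.0225, and AHSG, HRG and FETUB (0.0793 ± 0.0726, 0.0184 ± 0.016 and 0.0136 ± 0.0235) did not separate beyond their spread.

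The genes next to the cluster changed less than its members, while ST6GAL1 and MASP1, farther along, changed within the members' range of 2.11 to 6.81. All 20 other genes of the table within 1 Mb of its ends were tested. Of these, 9 rose, 6 fell and 5 did not pass the threshold, with a median log2 change of 0.11. Among the rises, LINC02051 passed the filter only through its knockout values, so its direction was fixed. For the other 909 tested genes of chromosome 3 the median was -0.04 (36.3% rose and 43.0% fell). For all tested genes it was 0.01 (40.3% rose and 39.6% fell). When libraries were scaled to equal sums, 7 neighbours rose and 9 fell, with a median of -0.003. By quantile normalization 6 rose and 7 fell, with a median of -0.011. Leaving out 1 library gave 7 to 9 rises and 6 falls. SNORA63, whose groups overlapped, and AC007920.2 lost their calls under these scalings and without some single libraries. The antisense gene AC068631.1, which runs across the cluster, had 1.49, 1.01 and 1.59 scaled CPM in wild type and 1.37, 1.75 and 1.31 in the knockout, with overlapping groups (log2 change 0.09 ± 0.162; limma adjusted p = 0.61). The sign of that change flipped with equal sums (-0.009), by quantile normalization (-0.052), without knockout library 2 (-0.003) and without wild-type library 2 (-0.052). The kit marks strand, but whether strand was used in counting is not given in the sources used here, so reads of the antisense RNA and of the 4 genes may not be fully separated.

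The nearest coding gene before AHSG with a value was DNAJB11, a chaperone of the endoplasmic reticulum. It rose from 53.1 ± 0.944 to 71.3 ± 0.912 scaled CPM (SD, n = 3 each), a log2 change of 0.42 ± 0.034 (SE; limma adjusted p = 3.6e-08). EIF4A2, a translation helicase that begins 38.8 kb beyond KNG1, was at 432 ± 9.52 and 435 ± 4.15 scaled CPM (log2 change 0.01 ± 0.026; limma adjusted p = 0.72); its value turned to a fall of 0.13 when libraries were scaled to equal sums (adjusted p = 0.00027) and of 0.10 by quantile normalization (adjusted p = 0.0032). RFC4, a subunit of the clamp loader of DNA replication, fell from 29.3 ± 3.05 to 13.6 ± 0.798 scaled CPM (log2 change -1.08 ± 0.075; limma adjusted p = 7.0e-09).

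Larger rises came back farther along. ST6GAL1, the sialyltransferase that caps glycans of liver-secreted proteins, lies 186.1 kb beyond KNG1. Its levels were 1.73, 1.20 and 1.30 scaled CPM in wild type and 76.2, 72.4 and 77.3 in the knockout, a log2 change of 5.32 ± 0.097 (SE; limma adjusted p = 4.1e-15). MASP1, a protease of the lectin pathway of complement, lies 472.9 kb beyond and rose from 4.47 ± 0.215 to 26.9 ± 0.422 scaled CPM (log2 change 2.46 ± 0.074; limma adjusted p = 6.8e-13). They were the 2 of 20 neighbours that rose by at least 4-fold, as did 4.82% of all tested genes and 39 of 909 on chromosome 3. ADIPOQ, which stands between RFC4 and ST6GAL1, was not analysed here.

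**Figure D3:**
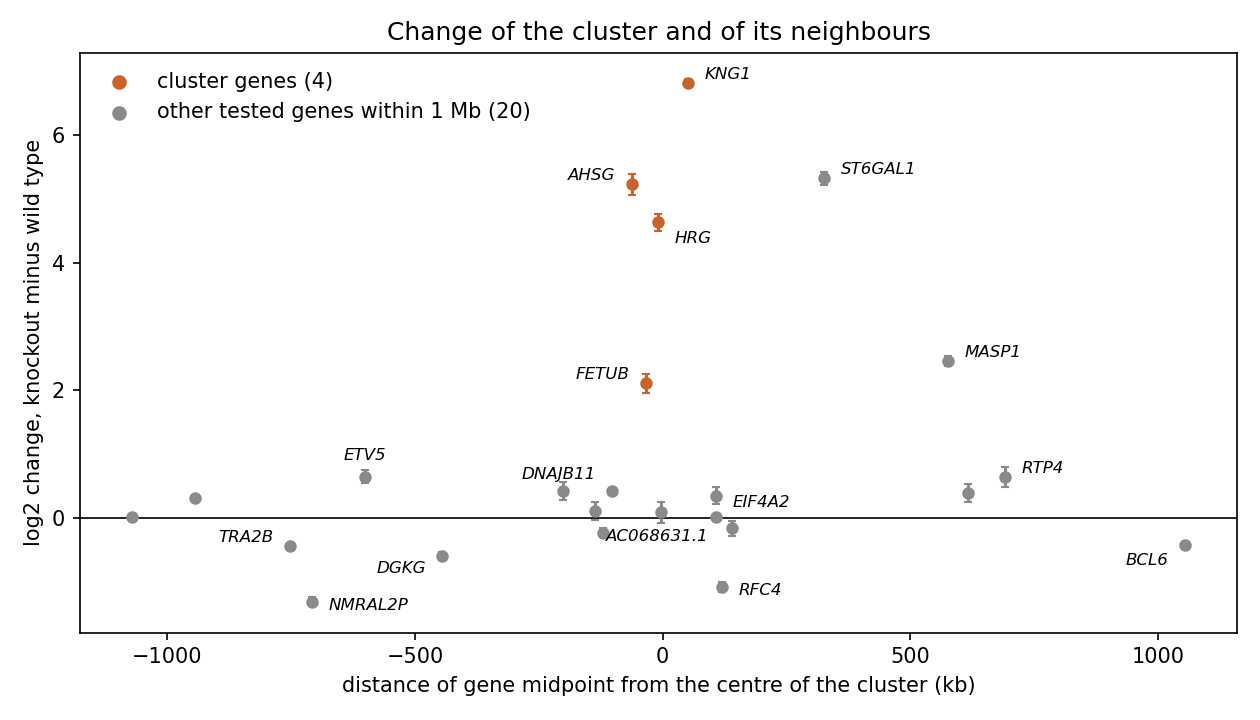
Log2 change (knockout minus wild type, ± SE) against the distance of each gene's midpoint from the centre of the cluster in kb, for the 4 cluster genes (orange) and 20 other tested genes whose bodies reach within 1 Mb (grey). Between the cluster and ST6GAL1 at 5.32 lie genes such as EIF4A2 at 0.01 and RFC4 at -1.08, and outside the cluster only ST6GAL1 and MASP1 exceed 2.

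The contact and kinin system is where KNG1 acts. Of 21 listed genes 16 were in the table and 15 tested. Of the 15, 8 rose (53.3%) and 5 fell (33.3%), beside 40.3% and 39.6% of all tested genes. The median log2 change of the list was 0.20 beside 0.01 for all genes. That median was 0.66 when a looser filter or none let in CPN1, 0.07 with equal sums, where 7 fell, and 0.10 by quantile normalization. F12 and BDKRB2 passed the filter only through their knockout values, so their direction was fixed. Genes without wild-type reads lie above the medians of this list and of the partner and ligand lists. Setting those genes to their lower bound therefore could not move the medians. The proteases and the inhibitor of contact activation were among those that rose, and peptidases that degrade kinins were divided. F12, the factor that starts contact activation, had no read in any wild-type library and 28.6, 30.8 and 31.5 scaled CPM in the knockout, at least 558-fold higher than 3 reads over the wild-type group. KLKB1, which encodes plasma prekallikrein, rose from 4.57 ± 0.233 to 26.3 ± 1.04 scaled CPM. F11, the factor carried by high molecular weight kininogen, rose from 1.33 ± 0.116 to 12.1 ± 0.346. SERPING1, the C1 inhibitor that blocks kallikrein, rose from 16.8 ± 0.384 to 120 ± 2.42, a log2 change of 2.80 ± 0.039 (SE; limma adjusted p = 2.3e-16).

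Receptors and degrading enzymes of kinins made up the rest. BDKRB2, the constitutive bradykinin receptor, had no wild-type read and 1.91, 2.07 and 1.84 scaled CPM in the knockout, at least 35.6-fold higher than 3 reads over the wild-type group. CPB2, a plasma carboxypeptidase that also trims kinins, rose from 44.3 ± 1.73 to 274 ± 3.28 scaled CPM. CPN1, the catalytic subunit of the kininase carboxypeptidase N, stayed below the filter, with 1 read in wild type and 0.524, 1.11 and 0.716 scaled CPM in the knockout, while its carrier subunit CPN2 rose from 48.9 ± 1.13 to 107 ± 2.22. MME, or neprilysin, rose from 244 ± 5.45 to 280 ± 5.08. CPM, a membrane kininase, fell from 32.5 ± 0.659 to 18.9 ± 0.339 scaled CPM (log2 change -0.77 ± 0.050; limma adjusted p = 3.0e-09), and PRCP, a prekallikrein-activating carboxypeptidase of the lysosome, fell from 239 ± 7.66 to 156 ± 1.86 (log2 change -0.62 ± 0.029; limma adjusted p = 1.0e-10).

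Partners of the fetuins were divided as well. Of 16 listed genes for fetuin receptors, targets and mineral control, 14 were tested, with a median log2 change of 0.50. Of the 14, 9 rose (64.3%) and 4 fell (28.6%), beside 40.3% and 39.6% of all tested genes. In this list, ASGR1 and MEP1A were tested only through their knockout values. ASGR2 and ALPL were above 1 scaled CPM in fewer than 3 wild-type libraries, so they also needed their knockout values to be tested. ASGR1 and ASGR2, the subunits of the hepatocyte receptor that clears desialylated glycoproteins such as fetuin-A, were at 0.742, 0.441 and 0.855 and at 1.24, 0.335 and 0.360 scaled CPM in wild type. In the knockout ASGR1 had 67.0 ± 2.40 and ASGR2 70.0 ± 2.94 scaled CPM (SD, n = 3), log2 changes of 5.86 and 6.03. MEP1A, a metalloprotease of the family that fetuin-B inhibits, had no wild-type read and 3.04 ± 0.174 scaled CPM in the knockout, at least 56.1-fold higher than 3 reads over the group. INSR, the insulin receptor, rose from 187 ± 4.77 to 262 ± 5.92. SPP1, for osteopontin, which inhibits mineral growth as fetuin-A does, fell from 382 ± 12.4 to 43.6 ± 1.46 scaled CPM (log2 change -3.12 ± 0.034; limma adjusted p = 1.8e-17); it is also a cholangiocyte marker. ANKH, a pyrophosphate transporter, fell from 37.6 ± 1.08 to 32.4 ± 1.15.

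Of 12 listed genes for ligands of HRG 9 were tested, with a median log2 change of 3.88. Of the 9, 7 rose (77.8%) and 2 fell (22.2%), beside 40.3% and 39.6% of all tested genes. Among the 7, SERPINC1, F12 and PLG passed the filter only through their knockout values, so their direction was fixed. FGA, FGB, FGG and SERPINC1 are also among the plasma protein genes counted separately, and F12 in the contact system. PLG, which encodes plasminogen, rose from 0.593 ± 0.294 to 11.7 ± 0.472 scaled CPM, and the fibrinogen chain gene FGA from 128 ± 2.64 to 2875 ± 8.71. The heparin-binding inhibitor SERPINC1, or antithrombin, went from 0.513 ± 0.127 to 109 ± 2.18. The thrombospondin genes went opposite ways: THBS1 fell from 492 ± 4.58 to 183 ± 1.44 scaled CPM (log2 change -1.43 ± 0.024; limma adjusted p = 1.7e-15) and THBS2 rose from 5.73 ± 0.448 to 90.9 ± 3.17 (log2 change 3.88 ± 0.061; limma adjusted p = 8.2e-16). HPSE, an enzyme that cleaves heparan sulfate, fell from 6.67 ± 0.590 to 4.28 ± 0.197.

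Cystatins outside the cluster changed far less. Of 14 listed genes, CST3, CSTA and CSTB were in the table. CST3, the widely expressed secreted cystatin C, was at 150, 147 and 152 scaled CPM in wild type and 251, 270 and 261 in the knockout, a log2 change of 0.80 ± 0.031 (SE; limma adjusted p = 1.1e-11). CSTA, an intracellular stefin, rose from 15.6 ± 0.445 to 18.5 ± 0.448 scaled CPM, a call lost when libraries were scaled to equal sums (adjusted p = 0.12). CSTB, the other stefin, was at 44.7 ± 3.25 and 47.7 ± 1.45 (limma adjusted p = 0.10).

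Factors known to act on plasma protein genes were followed in a list of 32, of which 29 were tested (median log2 change 0.64). Of the 29, 19 rose (65.5%) and 5 fell (17.2%), beside 40.3% and 39.6% of all tested genes. ONECUT1 and NR0B2 were tested only through their knockout values. With equal sums 17 rose and 7 fell, as NFIB and RXRA no longer passed, and by quantile normalization 19 rose and 7 fell. The falls numbered 3 without knockout library 1 or without wild-type library 3, since NFIX and DBP then missed the threshold. NR1H4, or FXR, a receptor described as an activator of the human kininogen gene, rose from 2.17 ± 0.394 to 68.7 ± 2.63 scaled CPM. ONECUT1, a factor of hepatocyte differentiation, went from 0.0734 ± 0.0225, or 4 wild-type reads, to 9.28 ± 0.280, and PROX1 from 6.40 ± 0.327 to 58.6 ± 1.40. CEBPA rose from 13.6 ± 1.04 to 27.8 ± 0.320 and CEBPB from 55.7 ± 4.56 to 81.3 ± 4.17 scaled CPM. NFIA and NR2F2 fell, from 88.3 ± 2.65 to 65.5 ± 0.991 and from 9.96 ± 0.661 to 7.85 ± 0.384. Whether any of them acts on the 4 genes was not tested. HNF4A was not analysed here.

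**Figure D4:**
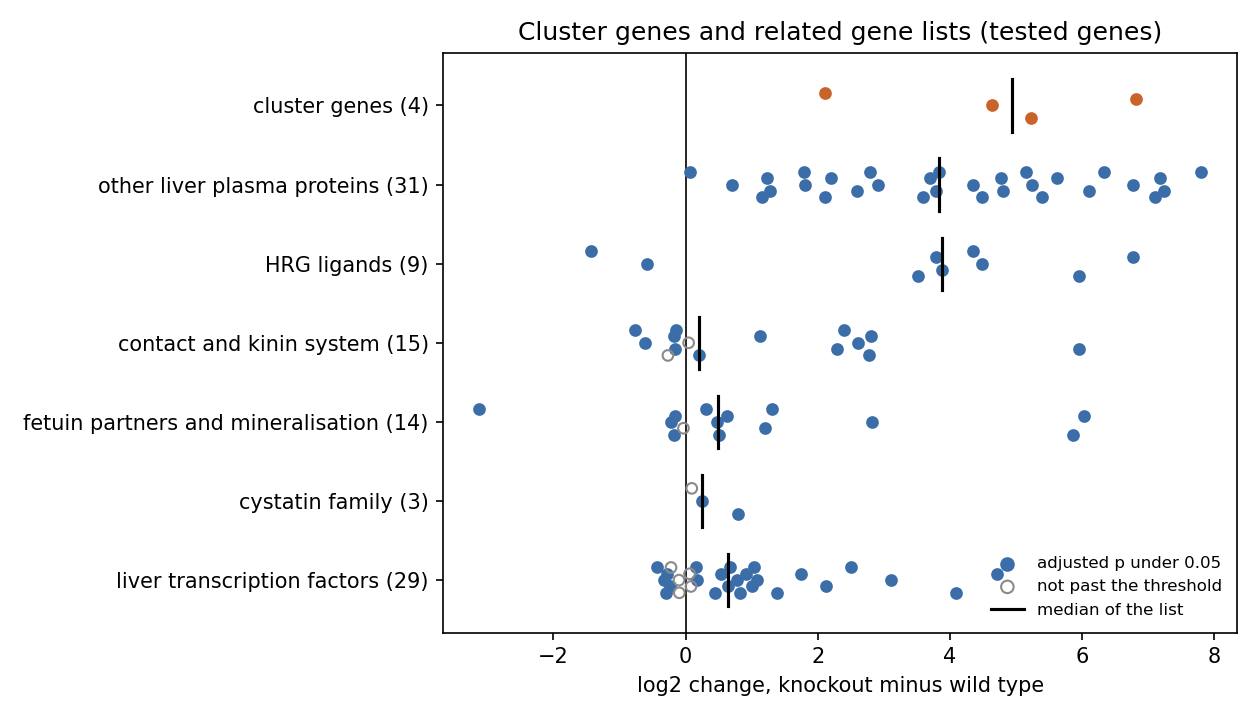
Log2 change (horizontal axis, knockout minus wild type) of each tested gene in the cluster (orange) and in 6 related lists (blue, or open grey where the adjusted p was not under 0.05), with a black bar at each list's median. The cluster genes run from 2.11 to 6.81, and medians of the 6 lists run from 0.20 for the contact and kinin system (0.07 to 0.66 under other filters and scalings) to 3.88 for the HRG ligands.

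Among 31 other liver plasma protein genes all passed as higher, beside 40.3% of all tested genes. Log2 changes of the 31 ran from 0.06 to 7.80, with a median of 3.83. For 6 of the 31 (HPX, SERPINC1, ITIH1, AFM, APOA2 and A1BG) the direction was fixed, since they passed the filter only in the knockout. CP, which encodes ceruloplasmin, had the smallest change (limma adjusted p = 0.037). Its call was lost without wild-type library 1 or 2 or knockout library 1 or 3 (adjusted p from 0.065 to 0.10), with a replicate block (0.062) and with no mean-variance trend (0.15), and it turned to a fall of 0.08 when libraries were scaled to equal sums (0.018) and of 0.03 by quantile normalization (0.20). The 4 cystatin-like genes lie within that range. KNG1 at 6.81 was close to SERPINC1 at 6.77, and HPX, the heme carrier, was the highest of the list.

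Genes with the most similar pattern over the 6 libraries were found by the Euclidean distance between log2 values centred on each gene's mean. For KNG1 they were SERPINC1 (distance 0.157), FGL1 (0.233), a fibrinogen-like liver protein, and FABP1 (0.277), the liver fatty acid-binding protein. For HRG they included RNF152 (0.256) and C9 (0.305), the terminal complement component, which had no wild-type read. AHSG had TMEM176A (0.176), NECTIN4 (0.226) and WDR72 (0.292) nearest, and FETUB had TRIM29 (0.0825), the pseudogene AL445487.1 (0.116) and POTEC (0.116). With groups this far apart, the distance mainly reads the size of the change, and none of the nearest genes lies on chromosome 3.

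Markers of other cell types moved too, and their part in the results was not tested. The counts below stand beside shares of 40.3% higher and 39.6% lower among all tested genes. Of 13 cholangiocyte markers 8 were in the table, 5 of 7 tested rose and 2 fell, and their sum was 806 to 832 scaled CPM in wild type and 875 to 930 in the knockout. Of 15 stellate and mesenchymal markers 12 were present, 5 of 11 tested rose and 6 fell, with sums of 332 to 342 and 559 to 576. Of 12 endothelial markers 5 were present, 1 of 4 tested rose and 3 fell, with sums of 57.6 to 58.9 and 217 to 224, nearly all of it KDR (53.3 and 218), while PECAM1 was at 1.58 and 0.353. Of 22 macrophage and leukocyte markers 4 were present, 3 rose and 1 fell, with sums of 21.9 to 25.5 and 37.2 to 38.5. In these lists KRT7 (cholangiocyte), PDGFRB (mesenchymal) and PECAM1 (endothelial) passed the filter only through their wild-type values, so their falls were fixed in direction. MUC1 (cholangiocyte, higher) needed its knockout values to be tested, and TIE1 (endothelial, lower) its wild-type values. Some calls were lost when any 1 of several libraries was left out. LYZ (higher) lost its call without wild-type library 1 or 2 or knockout library 1 or 3. CD14 (lower) lost its call without wild-type library 2 or 3 or knockout library 1 or 2. The endothelial marker TIE1 (lower) lost its call without wild-type library 1 or knockout library 1 or 3. The call of ESAM, another endothelial marker and also lower, was lost without wild-type library 3 or knockout library 1. The CD14 call was also lost with a replicate block (adjusted p = 0.061) and with a pseudocount of 0.1 (0.054), that of LYZ with equal sums (0.15) and by quantile normalization (0.18), and that of TIE1 with no mean-variance trend (0.066). In these lists of other cell types, none of the markers present was at 0 in a whole group.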

How the data were processed

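Values came from the table of scaled CPM that the authors deposited for the 6 libraries, a linear signal with a factor per library although the table is named for log2 CPM. Per the labels' protocols, total RNA went through a stranded mRNA kit. Tools listed in the submitters' processing notes are limma, edgeR, Bowtie2, Trim Galore and FastQC, with hg38 as build, and sample titles begin with RSEM. The sources used here give neither versions nor annotation. Depths were estimated from the smallest step between values, a fixed fraction of 1 read. Of values under 20 reads, 67.9% to 76.6% were whole (within 0.006), so no count test of the groups was run.

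After 14 second pseudoautosomal copies were left out, 16608 of 16659 identifiers matched GENCODE 29 on GRCh38, the source of coordinates and lengths; AHSG matched without its version number. Genes above 1 scaled CPM in at least 3 libraries were tested on log2(scaled CPM + 0.5) with limma 3.58.1 in R 4.3.3 (group model, mean-variance trend, two-sided, Benjamini-Hochberg over all genes, threshold 0.05). The fit was checked on simulated data in which far fewer genes changed than here, with the same replicate noise setting for every gene. That check does not show how the test performs on data like these. No pair of replicates agreed within sampling noise (mean chi-square per gene 2.23 to 9.73), so each library counts once. Pooled-read intervals are exact binomial, at 95%, and treat summed estimated reads, rounded to whole numbers, as counts although some were fractional. Python 3.11.15, pandas 2.3.3, numpy 2.4.6, scipy 1.17.1 and matplotlib 3.10.9 were used.

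The 4 genes and all lists were chosen with earlier results of these data known. Genes named are the 4, NR1I2, tested genes within 1 Mb, up to 3 largest rises and 2 largest falls per list with others whose role is described, and the 3 nearest genes per member; a few of these are not reported here. Pseudocounts of 1 and 0.1, other filters, scalings, a replicate block, no trend and leaving out each library were tried.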

Additional observations from a re-analysis of the deposited data

How the results depend on the processing

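The rise of KNG1 kept its direction and passed the threshold under all 14 alternatives, with the largest limma adjusted p at 1.5e-08. AHSG, FETUB and HRG passed as well. Where the filter of 1 scaled CPM was used, their direction was fixed, since they entered the test through their knockout values. Log2 changes ranged from 4.45 to 6.68 for AHSG, 1.43 to 3.94 for FETUB, 3.79 to 6.31 for HRG and 6.44 to 7.19 for KNG1, the ends being set by the pseudocounts of 1 and 0.1. Ratios of pooled reads, an analysis chosen after seeing the data, kept within their intervals under 7 alternatives each; leaving out 1 library gave 88.6 to 169 for AHSG, 25.4 (a bound) to 99.0 for FETUB, 102 to 163 for HRG and 154 to 165 for KNG1. Equal sums moved the median of all genes by -0.13 and gave 5357 higher and 7680 lower genes in place of 6534 and 6426; 1 cystatin outside the cluster then rose, and 1 plasma protein gene (CP) fell. Falls among transcription factors numbered 3 to 6 when 1 library was left out, and 7 with equal sums or quantile normalization. Differences in share turned sign: leaving out 1 library gave -6.94 to 3.06 percentage points for AHSG, -2.15 to 0.763 for FETUB, -2.79 to 1.77 for HRG and -2.43 to 8.96 for KNG1, and quantile normalization gave -2.52 for HRG; the cause was not tested. Same-numbered libraries did not deviate together (correlations -0.02, -0.061 and 0.025), and the replicate block left 12916 genes past the threshold in place of 12960. Wild-type values of AHSG, HRG and FETUB rest on 12, 6 and 1 reads, which limits their folds.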
